A study of Mus musculus with 40 samples.

Results

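The genes described here are the Hox genes of the a, b, c and d clusters, chosen by symbol among the genes of the array. Of 16593 gene symbols on the array, 38 belonged to the 4 Hox clusters, and 50 probes measured them, with more than 1 probe for 9 genes. A gene counted as detected in a tissue when at least 5 of its 20 arrays gave a probe of it a detection p-value under 0.05, the detection p-value being the scanner software's measure of signal over negative control probes. By that measure 24 of the 38 genes were detected in either tissue, 20 in colon and 18 in small intestine. Of all 16593 genes, 10262 were detected in either tissue, 9833 in colon and 9634 in small intestine.

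Hox genes encode homeodomain transcription factors that give the cells along the head-to-tail axis of the embryo their positional identity. Within a cluster the genes lie in the order in which they are used along the body, so that genes of low paralog number act anteriorly and those of high paralog number posteriorly. In the gut they are known chiefly from the mesenchyme that forms muscle and connective tissue, and the hindgut is patterned by the posterior genes of the a and d clusters.

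RNA of whole colon and small intestine tissue was measured with Illumina MouseRef-8 bead arrays in 20 female mice aged 9 weeks, 5 per group, with both tissues of every mouse on an array of its own (40 arrays). The groups were BALB/c mice given PBS, BALB/c mice given VSL#3 (a mixture of live probiotic bacteria), C57BL/6 mice given PBS and C57BL/6 mice given VSL#3, each by gavage 3 times a week for 4 weeks, the bacteria in 200 µl of PBS. The C57BL/6 mice came from Charles River and the BALB/c mice from Janvier, so strain and supplier cannot be told apart. No segment of either tissue is named in the labels, and the mice of a group are the replicates, since each has its own number.

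Levels are given as normalized log2 signals and differences as log2 values, with the standard error from limma as SE. An array detected 11898 to 13518 of its 25697 probes, and within groups r between arrays lay at 0.973 to 0.988. The source names carry a letter, A for mice 1 to 3 of each group and B for mice 4 and 5, which the labels do not explain. The tissue labels held: Sis, the sucrase-isomaltase of the small intestinal brush border, lay between 13 and 13.8 in small intestine and between 4.44 and 7.05 in colon, and the colonic water channel Aqp8 between 11.1 and 11.6 in colon against 4.67 to 5.92 in small intestine. Every small intestine array carried Fabp6, the ileal bile acid-binding protein, at 13.8 to 14.5, whereas the ileal bile acid transporter Slc10a2 was detected on 0 of 20. Every colon array carried Insl5, a peptide of colonic endocrine cells, at 9.90 to 11.3. Pancreatic acinar markers were higher in colon. The summed level of 6 of them lay between 11.1 and 16.2 there against 7.99 to 8.65 in small intestine. It was highest in the colon of BALB/c VSL#3 mice 4 and 5 and C57BL/6 PBS mouse 3. Colon arrays detected 1 to 6 of the 6 and small intestine arrays 2 to 4, so on some colon arrays the sum rested on few genes. The colon array of C57BL/6 PBS mouse 5 stood apart from the other 19 in many Hox genes, and results that rest on it are given with and without it. In whole tissue, fewer cells of a type and less RNA per cell cannot be told apart.

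The promoters below belong to the most raised Hoxa gene in colon (Hoxa7), to a pair of Hoxd genes raised in colon (Hoxd10 and Hoxd13) and to a Hoxb gene lowered in colon (Hoxb4), and are shown because the data bear on genes that move opposite ways. Sequences are from RefSeq (GRCm38.p6), which gave a promoter for 22 of the 38 genes, and run 5′ to 3′ on the gene's strand across the transcription start: chr6:52218524-52218823 on the minus strand for Hoxa7, and on the plus strand chr2:74691641-74691940 for Hoxd10, chr2:74667975-74668274 for Hoxd13 and chr11:96318017-96318316 for Hoxb4. Capitals mark TTTATG, a core bound by caudal-type (CDX) homeodomain proteins, or TGACAG, bound by MEIS cofactors of Hox proteins, searched on both strands.
Hoxa7: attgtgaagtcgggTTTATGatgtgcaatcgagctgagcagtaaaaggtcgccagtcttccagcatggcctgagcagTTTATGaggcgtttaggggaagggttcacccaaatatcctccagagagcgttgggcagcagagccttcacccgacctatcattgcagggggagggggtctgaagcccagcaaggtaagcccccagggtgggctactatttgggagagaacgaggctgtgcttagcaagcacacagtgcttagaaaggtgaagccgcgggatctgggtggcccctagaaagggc
Hoxd10: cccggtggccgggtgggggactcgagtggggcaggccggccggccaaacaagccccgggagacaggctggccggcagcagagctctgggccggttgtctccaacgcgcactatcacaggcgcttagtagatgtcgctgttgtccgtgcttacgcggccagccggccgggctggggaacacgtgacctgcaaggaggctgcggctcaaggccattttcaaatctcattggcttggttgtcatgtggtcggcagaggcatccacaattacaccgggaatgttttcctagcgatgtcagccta
Hoxd13: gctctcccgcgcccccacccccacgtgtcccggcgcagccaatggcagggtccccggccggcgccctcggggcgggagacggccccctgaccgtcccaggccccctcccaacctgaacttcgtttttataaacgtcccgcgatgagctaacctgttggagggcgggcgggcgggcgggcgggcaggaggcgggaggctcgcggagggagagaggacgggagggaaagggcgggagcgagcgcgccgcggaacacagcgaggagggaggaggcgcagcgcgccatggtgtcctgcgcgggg
Hoxb4: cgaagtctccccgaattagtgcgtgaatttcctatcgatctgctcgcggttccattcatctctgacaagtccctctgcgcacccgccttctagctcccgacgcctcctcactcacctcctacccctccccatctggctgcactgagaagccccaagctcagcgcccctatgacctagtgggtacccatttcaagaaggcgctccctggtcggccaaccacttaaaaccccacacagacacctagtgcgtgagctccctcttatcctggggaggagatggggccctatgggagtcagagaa

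Hoxa7 held TTTATG 2 times, and Hoxd10, Hoxd13 and Hoxb4 held neither motif in these 300 bases. TTTATG was present in 11.9% of 32851 promoters of the same length and in 5 of 24 Hox promoters, those of Hoxa7, Hoxb8, Hoxd3, Hoxd4 and Hoxd11. TGACAG was present in 19.2% of promoters and in 2 of the 24, those of Hoxa2 and Hoxa3. The motifs do not overlap each other, and a match in this window is a description of the letters alone.

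Detection of the Hox genes was counted by cluster and by paralog number. Detected in either tissue were 7 of 10 Hoxa genes, 7 of 10 Hoxb genes, 3 of 9 Hoxc genes and 7 of 9 Hoxd genes. Colon held 7 Hoxa, 6 Hoxb, 1 Hoxc and 6 Hoxd genes, and small intestine 4 Hoxa, 7 Hoxb, 3 Hoxc and 4 Hoxd genes. Of the 12 genes with paralog numbers 10 to 13, 5 were detected in colon and 3 in small intestine. For paralog numbers 9 to 13 it was 8 and 6 of 16, and for 1 to 8 it was 12 of 22 in each tissue.

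Altogether 14 genes were detected in both tissues, 6 in colon alone (Hoxa2, Hoxa9, Hoxa11, Hoxd10, Hoxd12 and Hoxd13) and 4 in small intestine alone (Hoxb3, Hoxc9, Hoxc13 and Hoxd11). The remaining 14 were detected in neither: Hoxa3, Hoxa6, Hoxa10, Hoxb1, Hoxb8, Hoxb13, Hoxc4, Hoxc5, Hoxc8, Hoxc10, Hoxc11, Hoxc12, Hoxd1 and Hoxd3. Hoxb13, a posterior gene of the hindgut and prostate, was detected on 1 colon array of 20 and on 0 of 20 in small intestine. Just inside the detection limit stood Hoxc6, on 5 colon arrays, Hoxd9, Hoxd11 and Hoxc13, on 5 small intestine arrays each, and Hoxb3, on 6. Hoxc6 and Hoxd9 thus count among the genes of both tissues by the narrowest margin. Just outside stood Hoxa10, on 4 colon arrays, and Hoxa2 and Hoxc10, on 4 small intestine arrays each. A gene whose signal does not clear the background may still be transcribed below what a bead array resolves.

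**Figure D1:**
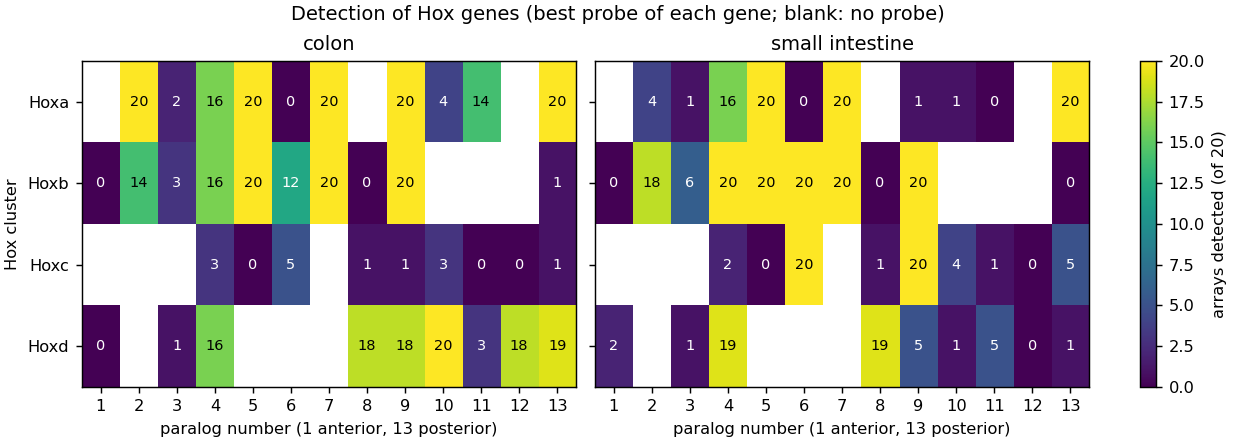
Number of arrays, of 20 per tissue, on which the best probe of each Hox gene was detected, by cluster (rows) and paralog number (columns), in colon (left) and small intestine (right). Hoxc6 and Hoxc9 reach 20 of 20 in small intestine against 5 and 1 in colon, and Hoxd10, Hoxd12 and Hoxd13 reach 20, 18 and 19 in colon against 1, 0 and 1 in small intestine.

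The comparison of colon with small intestine within the same mouse asks how far the adult gut wall still carries the order of the clusters. All tested Hoxa transcripts except Hoxa4 were higher in colon, as were Hoxd9, Hoxd10, Hoxd12 and Hoxd13 and, of the b cluster, Hoxb9. The 6 tested genes from Hoxb2 to Hoxb7 and the Hoxc genes Hoxc6 and Hoxc9 were higher in small intestine, and Hoxa4, Hoxc13, Hoxd4, Hoxd8 and Hoxd11 did not pass. With limma on the 20 within-mouse differences and Benjamini-Hochberg adjustment over 10262 genes, 19 of the 24 tested Hox genes passed an adjusted p of 0.05, 11 higher and 8 lower in colon. Among all genes tested 62.4% passed, 35% higher and 27.4% lower in colon. Since 10 of the 24 entered the fit through a single tissue, which selects genes that are higher there, the count was also taken on the 14 genes detected in both: 5 were higher in colon, 6 were lower and 3 did not pass. Of all 9205 genes detected in both tissues, 35.5% were higher and 27.8% lower. Of the 6 genes detected in colon alone all 6 were higher there, and of the 4 detected in small intestine alone 2 were lower in colon and 2 did not pass. The median Hox difference was -0.06 over the 24 genes against 0.02 over all genes, and the median size of the difference, whatever its sign, was 1.17 against 0.223. These medians include the 10 Hox genes that entered through a single tissue, which selects larger differences. They were not taken on the 14 alone, so the sizes are a description. For 7 of the 24 the 20 colon and 20 small intestine arrays did not overlap, 5 higher (Hoxa5, Hoxa7, Hoxa9, Hoxa13 and Hoxd10) and 2 lower in colon (Hoxc6 and Hoxc9), where 9.29% of all genes did not overlap (5.25% and 4.03%). Hoxa9, Hoxd10 and Hoxc9 are among those that entered through a single tissue. Of the 14 genes detected in both tissues 4 did not overlap, Hoxa5, Hoxa7, Hoxa13 and Hoxc6, against 9.16% of all genes detected in both.

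**Figure D2:**
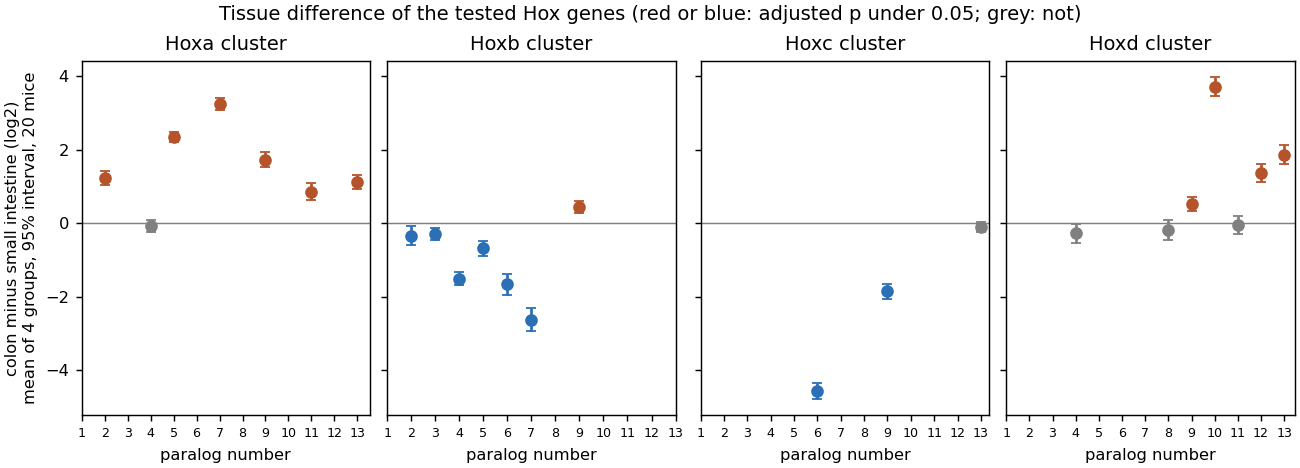
Colon minus small intestine difference (log2, mean of the 4 groups, 95% interval, 20 mice) of each tested Hox gene against its paralog number, by cluster. Hoxa genes lie above 0 except Hoxa4, Hoxb genes lie below 0 except Hoxb9, Hoxc6 is lowest at -4.57, and Hoxd10 is highest at 3.71.

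Of the 7 tested Hoxa genes, 6 were higher in colon and 0 lower, with a median difference of 1.23. Hoxa7, known in the mouse as a leukaemia oncogene together with Meis1, ranged from 9.14 over a median of 9.71 to 9.97 in colon and from 5.66 over 6.55 to 6.99 in small intestine. The ranges did not overlap, and colon was higher in 20 of 20 mice by 3.25 (SE 0.08, 9.51-fold, adjusted p = 1.42e-18). In the 4 groups the Hoxa7 difference lay between 3.23 in C57BL/6 PBS mice and 3.26 in C57BL/6 VSL#3 mice.

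Hoxa5, needed in the mouse for the development of lung and gut, ranged from 8.96 to 9.74 in colon (median 9.26) and from 6.45 to 7.46 in small intestine (median 6.95). It was higher in colon by 2.34 (SE 0.07, 5.07-fold, adjusted p = 5.82e-17), with no overlap between the tissues. Hoxa13, which shapes digits, hindgut and urogenital tract, ranged from 6.73 to 7.33 in colon (median 7.04) and from 5.39 to 6.72 in small intestine (median 5.91). Colon was again higher in 20 of 20 mice, by 1.11 (SE 0.09, 2.16-fold, adjusted p = 6.17e-10), and the ranges met without overlapping. Its other kept probes showed smaller differences, 0.60 and 0.34 of log2, so the size for Hoxa13 depends on the probe.

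Hoxa9, a regulator of blood stem cells, was detected on 20 of 20 colon arrays, at 5.57 to 6.96 (median 6.42), and on 1 of 20 small intestine arrays, at 4.40 to 5.42 (median 4.59). The difference was 1.73 (SE 0.09, adjusted p = 9.98e-13), and a further probe gave 1.41. Hoxa2, which patterns hindbrain and neural crest, was detected on 20 colon arrays at 5.54 to 6.57 (median 6.23) and on 4 small intestine arrays at 4.59 to 5.67 (median 4.85). It was higher in colon by 1.23 (SE 0.09, adjusted p = 1.06e-10), and by 0.49 on its other probe. Hoxa11, a forearm and uterus gene, was detected on 14 of 20 colon arrays and on 0 of 20 in small intestine, at 4.58 to 6.30 (median 5.34) against 4.34 to 4.67 (median 4.47). Against the detection limit it was at least 1.13-fold higher in colon (adjusted p = 7.18e-07). Hoxa4, an anterior gene of the cervical skeleton, was the exception of the cluster, with 16 of 20 arrays detected in each tissue and a difference of -0.07 (SE 0.07, 95% interval -0.23 to 0.08, adjusted p = 0.412).

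All 7 tested Hoxb genes passed, 6 of them lower in colon. Hoxb7, a gene of the trunk, was detected on every array and ranged from 5.25 over 5.96 to 8.59 in colon and from 8.41 over 8.90 to 9.26 in small intestine. It was lower in colon in 20 of 20 mice, by 2.63 on average (difference -2.63, SE 0.15, 6.21-fold lower, adjusted p = 2.28e-12). The tissues overlapped only through the colon of C57BL/6 PBS mouse 5, at 8.59. Hoxb6, its neighbour, ranged from 4.54 to 7.38 in colon (median 5.20, 12 arrays detected) and from 6.56 to 7.68 in small intestine (median 6.94, all 20 detected), a difference of -1.67 (SE 0.14, 3.18-fold lower in colon, adjusted p = 8.40e-10). Hoxb4, known for expanding blood stem cells, ranged from 4.87 to 6.83 in colon (median 5.43) and from 6.72 to 7.57 in small intestine (median 6.94), a difference of -1.51 (SE 0.09, 2.86-fold lower in colon, adjusted p = 2.24e-12). For Hoxb4, as for Hoxb7, the sole colon array inside the range of small intestine was that of C57BL/6 PBS mouse 5.

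Hoxb5, which acts in the mouse in the neural crest cells that form the enteric nervous system, ranged from 6.84 to 8.83 in colon (median 7.21) and from 7.52 to 8.53 in small intestine (median 8.04). The difference was -0.68 (SE 0.10, 1.60-fold lower in colon, adjusted p = 3.87e-06), with 17 of 20 mice lower in colon. The hindbrain genes Hoxb2 and Hoxb3 differed least, by -0.35 (SE 0.12, adjusted p = 0.0192) and -0.29 (SE 0.08, adjusted p = 0.00234), and both overlapped widely between the tissues. Hoxb3 was detected on 6 small intestine and 3 colon arrays. Hoxb9, the most posterior Hoxb gene detected and known for patterning ribs, ranged from 5.87 to 7.09 in colon (median 6.54) and from 5.6 to 6.57 in small intestine (median 6.08). It was higher in colon in 18 of 20 mice, by 0.44 (SE 0.08, 1.35-fold, adjusted p = 9.97e-05).

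Hoxc6 showed the most extreme difference among the Hox genes tested. This gene, which in the embryo marks brachial motor neurons and trunk tissue, ranged from 8.88 over 9.5 to 9.93 in small intestine, with 20 of 20 arrays detected. In colon it ranged from 4.48 over 4.88 to 5.40, with 5 of 20 arrays detected. The difference was -4.57 (SE 0.10, 23.7-fold lower in colon, adjusted p = 2.19e-19), and the tissues stood far apart in every group, from -4.80 in BALB/c VSL#3 mice to -4.21 in C57BL/6 VSL#3 mice. With most colon arrays not detected, the size of the Hoxc6 difference depends on the background of the colon arrays. Hoxc9, a thoracic motor neuron gene, ranged from 5.77 to 7.08 in small intestine (median 6.56) and was detected on 1 colon array, at 4.36 to 5.34 (median 4.64), a difference of -1.86 (SE 0.10, adjusted p = 3.85e-13), whose size likewise depends on the background of the colon arrays. Hoxc13, a regulator of hair keratins, stayed near the background in both tissues, with a difference of -0.11 (SE 0.06, 95% interval -0.24 to 0.02, adjusted p = 0.148).

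Of the 7 tested Hoxd genes, 4 were higher in colon and 3 did not pass. Hoxd10, Hoxd12 and Hoxd13 were detected in colon alone, which selects genes that are higher there. Hoxd10, a gene of the hindlimb and lumbar spinal cord, was detected on all 20 colon arrays, at 7.08 to 9.59 (median 8.47), and on 1 small intestine array, at 4.42 to 5.30 (median 4.75). The difference was 3.71 (SE 0.12, adjusted p = 2.74e-16), with 20 of 20 mice higher in colon, and its size depends on the background of the small intestine arrays. Hoxd13, needed for digits and, with Hoxd12, for the anal sphincter of the mouse, was detected on 19 colon arrays, at 5.05 to 7.49 (median 6.75), and on 1 small intestine array, at 4.41 to 5.20 (median 4.75). It was higher in colon in 20 of 20 mice, by 1.87 (SE 0.13, adjusted p = 7.02e-11), and the ranges overlapped through C57BL/6 PBS mouse 5 alone. Hoxd12 was detected on 18 colon arrays and on 0 of 20 in small intestine, at 4.50 to 6.73 (median 6.07) against 4.39 to 4.84 (median 4.58), and was at least 1.72-fold higher in colon (adjusted p = 1.10e-09).

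The anterior Hoxd genes did not pass. Hoxd4 differed by -0.27 (SE 0.13, 95% interval -0.54 to -0.01, adjusted p = 0.0657) and Hoxd8 by -0.19 (SE 0.13, 95% interval -0.47 to 0.09, adjusted p = 0.231), both of them genes of the axial skeleton. Without C57BL/6 PBS mouse 5, Hoxd4 passed as lower in colon, at -0.37 (adjusted p = 0.00274), and it also passed without C57BL/6 PBS mouse 1. Hoxd9, a limb and spinal cord gene next to Hoxd10, was higher in colon by 0.52 (SE 0.09, adjusted p = 6.33e-05), at 4.87 to 6.04 (18 arrays detected) against 4.42 to 5.6 (5 arrays). Hoxd11, a forearm gene, was near the background in both tissues and differed by -0.05 (SE 0.11, 95% interval -0.29 to 0.19, adjusted p = 0.733).

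**Figure D3:**
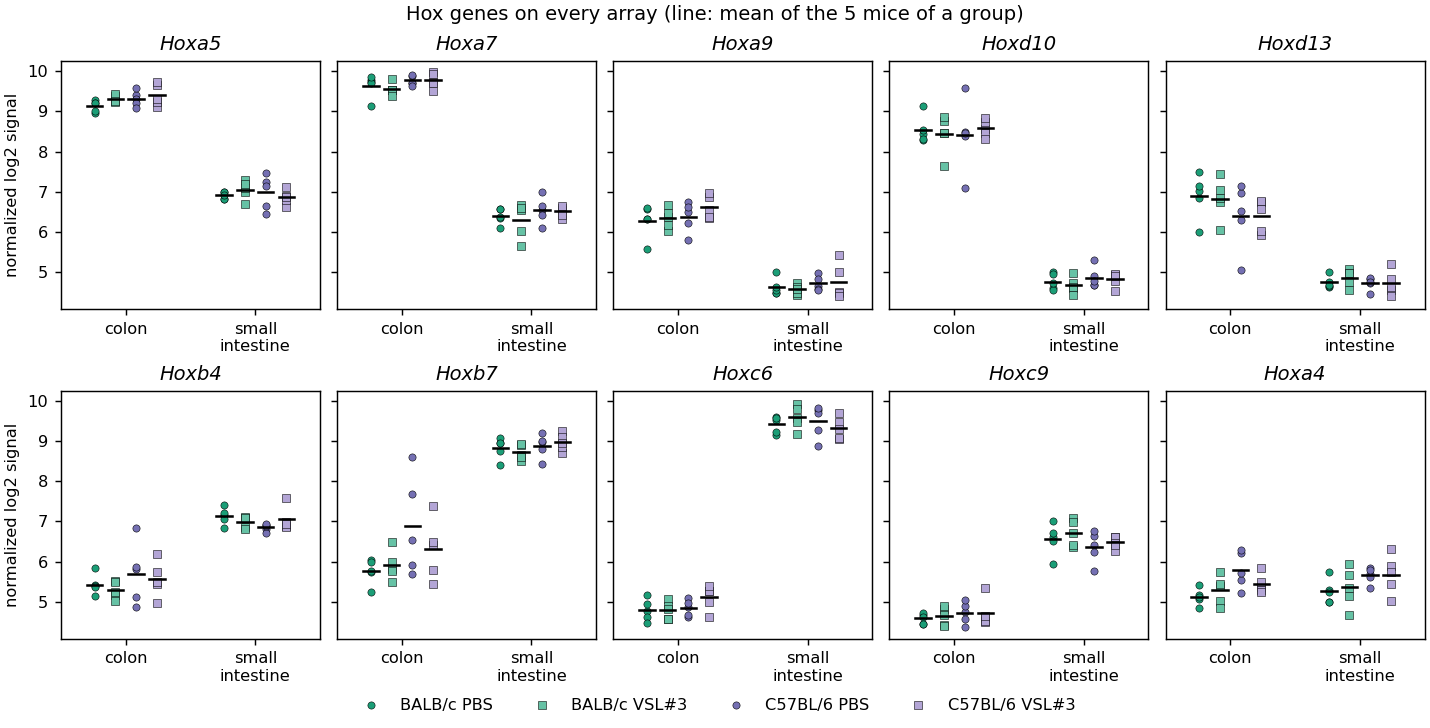
Normalized log2 signal of 10 Hox genes on each of the 40 arrays, by tissue, with 5 mice per group and a line at each group mean. The 20 colon and 20 small intestine arrays do not overlap for Hoxa5, Hoxa7, Hoxa9, Hoxd10, Hoxc6 and Hoxc9, whereas Hoxa4 lies at 4.84 to 6.29 in colon and 4.68 to 6.30 in small intestine.

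Genes with the same paralog number went opposite ways in different clusters. Hoxa7 differed by 3.25 and Hoxb7 by -2.63, Hoxa5 by 2.34 and Hoxb5 by -0.68, and among the paralogs numbered 9, Hoxa9, Hoxb9 and Hoxd9 were higher in colon while Hoxc9 was lower. Among the 14 genes detected in both tissues, 11 were numbered 1 to 8, of which 2 were higher and 6 lower in colon, and 3 were numbered 9 to 13 (Hoxb9, Hoxd9 and Hoxa13), all higher. With 3 genes in the posterior class this describes the members and gives no order by position. The other posterior genes higher in colon, Hoxa9, Hoxa11, Hoxd10, Hoxd12 and Hoxd13, were detected in colon alone.

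The tissue difference was also taken for each group of 5 mice, in the same fit and with an estimate of the spread shared by all groups. The 24 genes were the same, some of which entered through a single tissue. In BALB/c PBS mice 9 Hox genes were higher and 6 lower in colon, where 40.2% of all genes passed (23.3% higher and 16.9% lower). BALB/c VSL#3 mice had 10 higher and 7 lower (40.7% of all genes, 22.1% and 18.6%). C57BL/6 PBS mice had 10 higher and 5 lower (41.8%, 24.1% and 17.7%), and C57BL/6 VSL#3 mice 11 and 6 (42.3%, 24.2% and 18.1%). Hoxb5 had a tissue difference that differed between the strains. It was lower in colon by 1.10 in BALB/c PBS mice (difference -1.10, SE 0.20, adjusted p = 0.000118) and by 1.09 in BALB/c VSL#3 mice (difference -1.09, adjusted p = 0.000136), but differed by -0.09 in C57BL/6 PBS mice (adjusted p = 0.745) and by -0.44 in C57BL/6 VSL#3 mice (adjusted p = 0.0765). The difference between strains was itself tested: -0.82 (SE 0.20, adjusted p = 0.0109 over 10262 genes), the sole Hox gene of 24 to pass, against 8.54% of all genes. Hoxd8 (-0.71, SE 0.27, adjusted p = 0.119) and Hoxb4 (-0.39, SE 0.17, adjusted p = 0.187) had the same sign without passing, and passed when C57BL/6 PBS mouse 4 was left out, which raised the count to 3.

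Markers of other cell types also differed between the tissues, where 62.4% of all genes passed, 35% higher and 27.4% lower in colon. Epithelium markers are given for the BALB/c groups alone, where 40.2% (PBS) and 40.7% (VSL#3) of all genes passed. They went both ways, with 2 of 6 higher and 3 lower in colon in each of these groups. The other lists are counted on the mean of the 4 groups. Of 8 smooth muscle markers 7 were higher in colon and 0 lower (median difference 1.09), with a summed level of 15.6 to 16.2 against 14.3 to 15.4. Fibroblast markers were higher in colon for 6 of 7 and lower for 1, enteric neuron and glia markers higher for 3 of 4, and the 6 tested acinar markers were all higher. Lymphocyte markers were lower in colon for 4 of 5 (median difference -0.77), with a summed level of 7.62 to 9.33 against 9.15 to 10.6, and adipocyte markers were lower for 3 of 3 (median difference -0.97). Their part in the Hox differences was not tested. Leaving out the 3 mice with the highest acinar level gave the same count of 19. Every colon array had an acinar level of at least 11.1 against at most 8.65 in small intestine, so this left the tissue difference in acinar level in place. The count was also 19 in mice of source letter A alone, 17 in those of letter B, and 20 without C57BL/6 PBS mouse 5. For genes near the background in the low tissue, the size depends on the background correction. Without it, the difference rose to 6.19 for Hoxd10, 4.88 for Hoxa9, 4.49 for Hoxd12, 4.19 for Hoxd13, 4.14 for Hoxa11, 2.65 for Hoxa2, 1.45 for Hoxd9, -4.81 for Hoxc9, -2.59 for Hoxb6, -1.52 for Hoxb3 and -0.63 for Hoxb2.

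Proteins that work with Hox factors or act on the clusters were followed in lists drawn up with earlier results of these data known. Of 6 tested cofactors of the TALE class, which bind DNA beside Hox proteins, 3 were higher in colon and 0 lower: Meis2 by 0.41 (adjusted p = 5.96e-05), Pbx3 by 0.22 (adjusted p = 0.00458) and Meis1 by 0.22 (adjusted p = 0.00632). The caudal factors, upstream activators of Hox clusters in the embryo, split: Cdx1 was higher in colon by 0.61 and Cdx2 lower, at -0.64 (adjusted p = 1.12e-06 and 1.52e-05). Of 17 tested genes of the Polycomb group, which keeps Hox genes silent, 5 were higher and 8 lower in colon, led by Pcgf5 (0.51), Suz12 (-0.47) and Phc1 (0.64). Of 10 tested genes of the Trithorax group and the H3K27 demethylases, which keep Hox genes active, 1 was higher and 4 were lower, among them Ash2l (-0.53) and Kdm6b (-0.27).

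Retinoic acid, a signal that switches Hox genes on in the embryo, was represented by 9 tested genes, 2 higher and 5 lower in colon. The retinaldehyde dehydrogenases that make it were all lower there, Aldh1a1 by 1.35 (difference -1.35), Aldh1a3 by 1.17 (difference -1.17) and Aldh1a2 by 0.55 (difference -0.55). Of 8 tested transcription factors of gut mesenchyme 3 were higher and 2 lower in colon. Tbx3 was the widest apart, at 6.12 to 7.87 in colon and 9.55 to 10.9 in small intestine (difference -3.60, SE 0.09, 12.1-fold lower in colon, adjusted p = 3.34e-18). Each of these shares stands beside the 62.4% of all genes that passed.

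Strain was compared within each tissue, BALB/c minus C57BL/6, averaged over PBS and VSL#3. In colon 3 of 20 Hox genes passed, all lower in BALB/c mice, against 21.3% of 9833 genes (10.2% lower). The 3 were Hoxb5, Hoxb9 and Hoxa4, and none of the 20 separated the strains without overlap, as 4.38% of all genes did.

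In colon, Hoxb5 stood at 6.84, 6.85, 7.21, 6.86 and 7.06 in the 5 BALB/c PBS mice and at 6.92, 7.45, 6.99, 7.20 and 6.91 in the BALB/c VSL#3 mice. It stood at 8.47, 7.19, 7.63, 7.39 and 8.83 in the C57BL/6 PBS mice and at 6.94, 7.57, 7.71, 8.05 and 7.32 in the C57BL/6 VSL#3 mice. BALB/c mice were tightly grouped and C57BL/6 mice spread upward, with mice 1 and 5 of the PBS group highest. The difference was -0.68 (SE 0.18, 1.60-fold lower in BALB/c, adjusted p = 0.00814), with -0.94 in PBS mice alone (SE 0.25, adjusted p = 0.0170) and -0.43 in VSL#3 mice alone (SE 0.25, adjusted p = 0.328).

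Hoxb9 in colon stood at 6.58, 6.61, 5.88, 6.51 and 5.97 in BALB/c PBS mice and at 6.62, 6.38, 6.32, 5.87 and 6.45 in BALB/c VSL#3 mice. In C57BL/6 mice it stood at 6.36, 6.57, 6.5, 6.51 and 7.09 with PBS and at 6.57, 6.63, 7.09, 7.06 and 6.71 with VSL#3. The lowest arrays were BALB/c and the highest C57BL/6, with wide overlap between, and the difference was -0.39 (SE 0.12, adjusted p = 0.0283). Without the 3 mice of highest acinar level it was -0.35 and did not pass (adjusted p = 0.0904). Hoxa4 differed by -0.42 (SE 0.14, adjusted p = 0.0339) and was detected on 6 of 10 BALB/c and 10 of 10 C57BL/6 colon arrays. Hoxb7 (-0.76, SE 0.30, adjusted p = 0.0835) and Hoxb6 (-0.55, SE 0.24, adjusted p = 0.119) had larger or similar differences with a wider spread and did not pass.

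**Figure D4:**
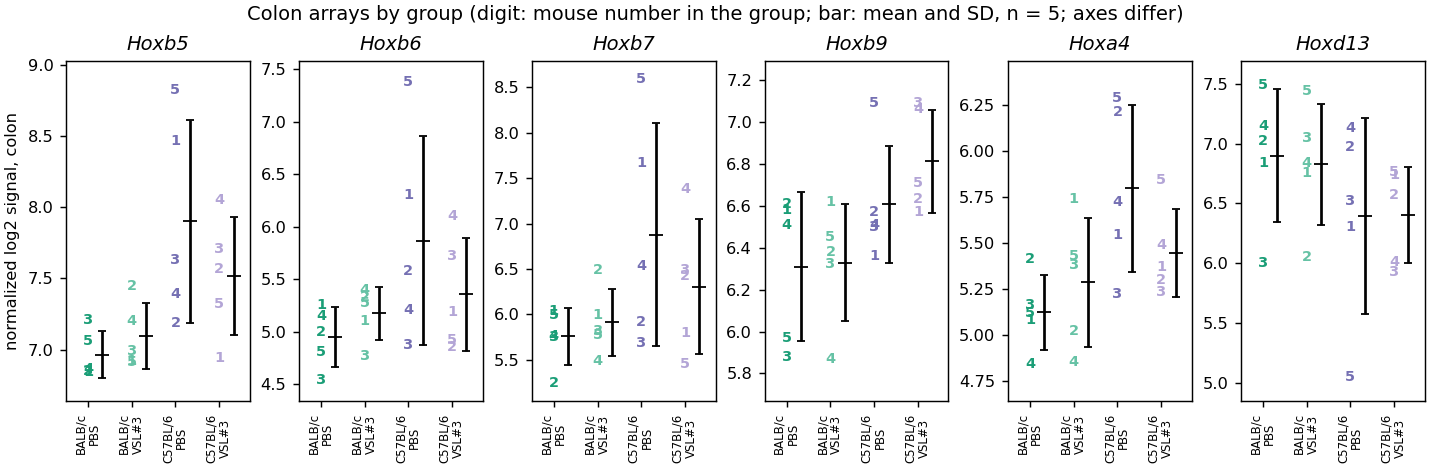
Normalized log2 signal of 6 Hox genes in colon, by group, each digit being the number of a mouse within its group and each bar the mean and SD of 5 mice. C57BL/6 PBS mouse 5 is highest for Hoxb5, Hoxb6 and Hoxb7 (8.83, 7.38 and 8.59) and lowest for Hoxd13 (5.05).

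These calls rested on few mice. Leaving out C57BL/6 PBS mouse 5, BALB/c VSL#3 mouse 4 or C57BL/6 VSL#3 mouse 4 left 1 of the 3 calls, Hoxb5, which passed whichever single mouse was left out (adjusted p at most 0.0179). Hoxa4 lost its call in 8 of the 20 fits without a single mouse (adjusted p up to 0.0688), those without BALB/c PBS mouse 1 or 4, BALB/c VSL#3 mouse 2 or 4, C57BL/6 PBS mouse 2 or 5, or C57BL/6 VSL#3 mouse 4 or 5. Hoxb9 lost its call in 6 of the 20 (adjusted p up to 0.0579), those without BALB/c PBS mouse 3 or 5, BALB/c VSL#3 mouse 4, C57BL/6 PBS mouse 5, or C57BL/6 VSL#3 mouse 3 or 4. Leaving out C57BL/6 PBS mouse 3 raised the count to 5. Within letter A the Hoxb5 difference was -0.54 (adjusted p = 0.126) and within letter B -0.89 (adjusted p = 0.119), neither of which passed with fewer mice. In the colon, 21.3% of all genes passed, 10.2% lower in BALB/c. Of 8 smooth muscle markers 3 were lower in BALB/c and 0 higher (median difference -0.24). Their summed levels were 15.6 to 16 in BALB/c and 15.8 to 16.2 in C57BL/6 mice. Of 4 tested enteric neuron and glia markers 1 was lower in BALB/c. Lymphocyte markers were higher in BALB/c colon for 4 of 5 (median difference 0.90), and so was the sole tested marker of distal colon, Insl5, by 0.34 (SE 0.11, adjusted p = 0.0284). Their part in the Hox differences was not tested.

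Among the Hox cofactors, Meis1 and Meis2 were also lower in BALB/c colon, by 0.24 (difference -0.24, SE 0.08, adjusted p = 0.0320) and 0.33 (difference -0.33, SE 0.12, adjusted p = 0.0444), 2 of 6 tested. Of the Polycomb genes, 2 of 17 were higher and 1 was lower in BALB/c colon. These counts stand beside the 21.3% of all colon genes that passed, and nothing particular to either list follows from them. Cbx7, a Polycomb subunit that binds methylated histone H3, was the lower member in colon (-1.0, SE 0.13, adjusted p = 3.90e-06) and again in small intestine (-0.77, SE 0.12, adjusted p = 8.14e-05).

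In small intestine 1 of 18 Hox genes passed, Hoxc13, against 20.9% of 9634 genes (11.4% higher in BALB/c). Hoxc13 stood at 5.29, 5.20, 5.02, 5.58 and 5.21 in BALB/c PBS mice, 5.00, 4.74, 4.59, 5.20 and 4.98 in BALB/c VSL#3 mice, 4.92, 5.31, 4.69, 4.64 and 4.79 in C57BL/6 PBS mice and 4.67, 4.81, 4.50, 4.79 and 4.73 in C57BL/6 VSL#3 mice. All 4 groups lay at the edge of the background, with 5 of 20 arrays detected, and the difference of 0.30 (SE 0.10, adjusted p = 0.0317) was lost with median scaling, without background correction, with a stricter detection threshold and in 8 of the 20 fits without a single mouse (adjusted p up to 0.0664), those without BALB/c PBS mouse 4, BALB/c VSL#3 mouse 1, 4 or 5, C57BL/6 PBS mouse 3, 4 or 5, or C57BL/6 VSL#3 mouse 3. Hoxb9 (-0.27, SE 0.11, adjusted p = 0.0778) and Hoxa4 (-0.36, SE 0.16, adjusted p = 0.122), both called in colon, had the same sign here and did not pass.

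VSL#3 was compared with PBS in each strain and tissue. By limma 0 Hox genes passed in any of these 4 comparisons, and 0 of all genes passed, 0%. At an unadjusted p under 0.05, 0 of 20 Hox genes stood out in BALB/c colon (3.43% of all genes), 1 of 18 in BALB/c small intestine (6.14%), 0 of 20 in C57BL/6 colon (6.44%) and 0 of 18 in C57BL/6 small intestine (4.22%). The gene was Hoxc13, with -0.36 (SE 0.14, adjusted p = 0.798). In BALB/c colon the smallest p belonged to Hoxa5, 9.13 ± 0.14 with PBS and 9.31 ± 0.09 with VSL#3 (SD, n = 5, limma adjusted p = 0.998), followed by Hoxb2 and Hoxa4. In C57BL/6 colon it belonged to Hoxa4, 5.80 ± 0.45 with PBS and 5.45 ± 0.24 with VSL#3 (SD, n = 5, limma adjusted p = 0.830), followed by Hoxc6 and Hoxb5, and in C57BL/6 small intestine to Hoxd9, Hoxb4 and Hoxd8.

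Hox differences with VSL#3 ran from -0.15 to 0.25 in BALB/c colon, from -0.57 to 0.36 in C57BL/6 colon, from -0.36 to 0.25 in BALB/c small intestine and from -0.33 to 0.27 in C57BL/6 small intestine. The 95% intervals were wide, reaching 1.05 from 0 in BALB/c colon and 1.47 in C57BL/6 colon for the least precise gene, so changes of that size in such a gene were not excluded by 5 mice per group. The VSL#3 effect did not differ between the strains for any Hox gene by this test (0 of 20 in colon and 0 of 18 in small intestine, and 0% of all genes). Unadjusted, 0 and 1 of them, and 4.56% and 5.38% of all genes, were under 0.05. The tissue difference likewise gave 0 of 24 between VSL#3 and PBS mice (0% of all genes, 7.58% at an unadjusted p under 0.05), with Hoxb3 nearest at -0.47 (SE 0.15, adjusted p = 0.514).

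Mice of a group also differed from each other in the Hox genes. For each of 30 pairs of genes that follow each other among the detected genes of a cluster, values less their group mean were correlated over the 20 arrays of a tissue, with two-sided permutation p-values from 100000 resamples adjusted over the 30 pairs. The resamples shuffled all 20 values across groups and made no allowance for the group means removed. Spread differed between groups (Hoxb7 in colon, SD 0.31 in BALB/c PBS and 1.23 in C57BL/6 PBS mice). The permutation p-values here and below may thus be too small, which matters most for pairs near the limit. In all, 11 pairs passed, 7 of 16 in colon and 4 of 14 in small intestine, 10 of them positive. The correlation was above 0 in 15 of 16 neighbour pairs in colon, against 115 of all 190 pairs of detected Hox genes, and in 9 of 14 in small intestine, against 97 of all 153, and the difference of these shares was not tested. In colon, Hoxd10 and Hoxd12 had r = 0.89 and rho = 0.76 (permutation p = 1e-05, the smallest these resamples can give, adjusted p = 0.0003). Without the 2 arrays farthest from the median r was 0.78, and within letters A and B it was 0.83 and 0.95. Hoxb6 and Hoxb7 had r = 0.82 and rho = 0.69 (permutation p = 2e-05, adjusted p = 0.0003), 0.63 without the 2 farthest arrays and 0.71 and 0.89 within the letters. Without background correction this pair did not pass (r = 0.54, adjusted p = 0.0622). Hoxd12 and Hoxd13 had r = 0.77 and rho = 0.78 (permutation p = 0.00014, adjusted p = 0.00105), with 0.54 and 0.99 within the letters.

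The other positive pairs were Hoxb4 with Hoxb5 (r = 0.56), Hoxb5 with Hoxb6 (0.72) and Hoxd4 with Hoxd8 (0.57) in colon, and Hoxb5 with Hoxb6 (0.69), Hoxd4 with Hoxd8 (0.67), Hoxc6 with Hoxc9 (0.60) and Hoxb7 with Hoxb9 (0.53) in small intestine. With C57BL/6 PBS mouse 5 dropped and the group means unchanged, 8 pairs passed. Hoxb4 with Hoxb5 (r = 0.34) and Hoxd4 with Hoxd8 (r = 0.40) in colon and Hoxb7 with Hoxb9 (r = 0.54) in small intestine no longer did. Without background correction 6 pairs passed, and besides Hoxb6 with Hoxb7 the colon pairs Hoxb4 with Hoxb5 (r = 0.49), Hoxb5 with Hoxb6 (0.37) and Hoxd4 with Hoxd8 (0.44) and the small intestine pair Hoxb7 with Hoxb9 (0.53, adjusted p = 0.0622) did not. Hoxa11 and Hoxa13 ran opposite in colon, with r = -0.80 and rho = -0.77 (permutation p = 3e-05, adjusted p = 0.0003), -0.76 without the 2 farthest arrays and -0.91 and -0.60 within letters A and B. With each array scaled to a common median in place of quantile normalization that r was -0.45 (adjusted p = 0.104), so this pair depends on the normalization.

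All 343 pairs of detected Hox genes were then correlated, a step added after the neighbour pairs had been seen. In colon 15 positive and 13 negative pairs of 190 passed, and in small intestine 11 positive and 1 negative of 153, adjusted over the 343. The negative pairs of colon mostly set Hoxb and anterior Hoxd genes against posterior Hoxd genes: all 18 pairs of Hoxb4, Hoxb5, Hoxb6, Hoxb7, Hoxd4 and Hoxd8 with Hoxd10, Hoxd12 and Hoxd13 had r between -0.79 and -0.38. Hoxb5 with Hoxd13 was the strongest (r = -0.79, rho = -0.75, permutation p = 4e-05, adjusted p = 0.00196), at -0.73 without the 2 farthest arrays and -0.74 and -0.93 within the letters. Within the first set the 15 pairs had r between 0.36 and 0.86, and within the second the 3 pairs had 0.77 to 0.89. Both sets were drawn after these correlations were seen and are a description. Colon arrays with more Hoxb4, Hoxb5, Hoxb6 and Hoxb7 RNA than their group thus tended to have less Hoxd10, Hoxd12 and Hoxd13 RNA.

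C57BL/6 PBS mouse 5 was the extreme of this pattern. Its colon array had the lowest Hoxd10 (7.08), Hoxd12 (4.50) and Hoxd13 (5.05) and the highest Hoxb4 (6.83), Hoxb5 (8.83), Hoxb6 (7.38), Hoxb7 (8.59), Hoxd4 (7.24) and Hoxd8 (6.67) of the 20. On the same array the summed caudal and retinoic acid lists ranked highest of the 20 colon arrays and the fibroblast list lowest. The ileum list ranked 4 and the distal colon list 8 of 20 from the top. Aqp8 stood at 11.1 (colon median 11.3), Insl5 at 10.8 (10.8), Sis at 6.57 (5.58) and Fabp6 at 8.07 (7.06). With this array dropped and the group means unchanged, the 18 pairs across the sets had r between -0.69 and 0.0030. The 15 pairs within the first set then had r between -0.033 and 0.79. The mean of its group still held the values of C57BL/6 PBS mouse 5, so the other mice of that group stayed shifted against it. These correlations thus do not remove its part in the pattern. Within each letter the 18 pairs were negative, between -0.74 and -0.06 in A and between -0.93 and -0.54 in B. These too used deviations from the mean of all 5 mice of a group, so the letters are not independent of each other. The place along the colon from which each piece was cut is not given in the labels, and its part in these correlations was not tested.

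**Figure D5:**
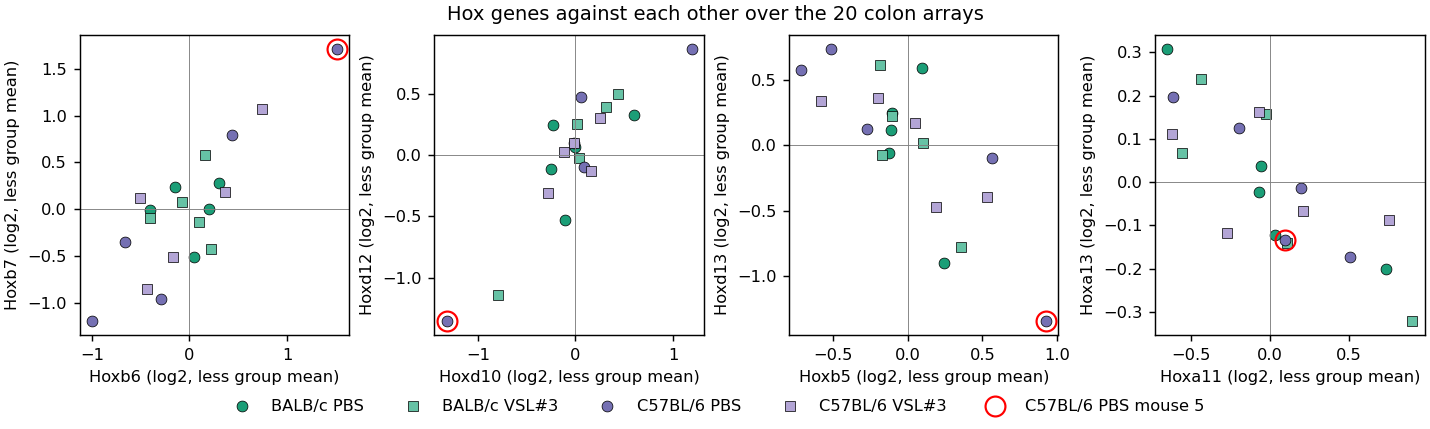
Pairs of Hox genes over the 20 colon arrays, each value being the log2 signal less its group mean, with C57BL/6 PBS mouse 5 ringed in red. Hoxb6 rises with Hoxb7 (r = 0.82) and Hoxd10 with Hoxd12 (r = 0.89), whereas Hoxb5 falls with Hoxd13 (r = -0.79) and Hoxa11 with Hoxa13 (r = -0.80).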

How the data were processed

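Arrays received 750 ng of biotin-labelled cRNA made from 500 ng of RNA, per the labels. One deposited table holds a linear intensity per probe, not normalized between arrays; 21.4% to 25.1% of its values per array lie below 0, so background had been subtracted. Its detection cells, deposited under a p-value heading, rise with the intensity and were read as 1 minus the detection p-value. Another deposited table holds log2 values with equal quartiles on all arrays, and served as an alternative. Of tools, limma alone appears in the submitters' processing notes. Its 10 VSL#3 colon columns followed arrays of the other strain, and H2-Ea (at least 11.8 in BALB/c, at most 6.98 in C57BL/6) separated the strains as labelled in the non-normalized table, so those columns were not used.

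Intensities were normalized with limma 3.58.1 neqc (offset 16, R 4.3.3). Probes detected (p-value under 0.05) on at least 5 arrays of a tissue were kept, the brightest standing for its gene. Symbols came from the platform annotation (23978 probes with a single symbol, 1719 left out). Tissues were compared with limma on within-mouse differences (20 mice, 4 group means), and strains and VSL#3 with limma on the 20 arrays of a tissue, Benjamini-Hochberg adjusted over 10262, 9833 and 9634 genes. A fold against a group with no detected array is given against the detection limit. Group labels come from the sample titles; the colon and small intestine of a mouse share a source code, and their deviations correlated with r over 0.1 in 14 of 20 mice. The number of arrays limits the precision. Named genes are all Hox members, called members or the 3 smallest p per contrast, and at most 5 called genes per list. Members and lists were chosen with earlier results of these data known. The steps were tested on simulated data. Correlations used numpy 2.4.6. Alternatives changed the background correction, scaling, filter, probe choice, table, block or mice.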

Additional observations from a re-analysis of the deposited data

Results flagged for a closer look

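In 97 sets of 5 colon or small intestine arrays of a group on which a Hox gene was detected throughout, 7 (7.22%) held a mouse far from the other 4 by Dixon's criterion, which chance alone gives in about 1 in 20. In BALB/c PBS mouse 5 colon, Hoxa7 was low at 9.14 against 9.70 to 9.85, Hoxa9 was low at 5.57 against 6.32 to 6.60 and Hoxd10 was high at 9.14 against 8.29 to 8.53. Hoxa2 was low in the colon of BALB/c VSL#3 mouse 5, at 5.84 against 6.27 to 6.34, and of C57BL/6 PBS mouse 4, at 5.54 against 6.19 to 6.44. Hoxb9 was high in the colon of C57BL/6 PBS mouse 5, at 7.09 against 6.36 to 6.57. Hoxb4 was high in the small intestine of C57BL/6 VSL#3 mouse 3, at 7.57 against 6.86 to 6.99.

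The colon minus small intestine difference of Hoxb5 differed between the strains, by -0.82 in log2 (BALB/c minus C57BL/6, limma adjusted p = 0.0109).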

How the results depend on the processing

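The count of 19 Hox genes between the tissues lay between 17 and 21 under every alternative run and between 19 and 20 when single mice were left out; the counts in single groups lay between 14 and 18 without single mice. Of the genes that did not pass there, a few turned sign: Hoxa4 in letter B mice alone (0.049), and Hoxd11 without background correction (0.12), without the 3 mice of highest acinar level (0.0049) and without C57BL/6 PBS mouse 5 (0.020; -0.11 to 0.020 without single mice). The strain count in colon, 3, was 0 in letter A mice alone and 1 in letter B mice alone, and lay between 1 and 5 without single mice. The strain count in small intestine, 1, was 0 with a detection p-value under 0.01, with median scaling, without background correction, with the authors' deposited log2 table and in letter A mice alone, and lay between 0 and 2 without single mice; in letter B mice alone and without the 3 acinar mice it was 1 again, but lower in BALB/c (Hoxa4 at -0.79, adjusted p = 0.0485, and Hoxb9 at -0.39, adjusted p = 0.0160), and Hoxc13 did not pass. The strain difference of the tissue difference, 1, lay between 1 and 3. All VSL#3 counts of Hox genes stayed at 0 under every alternative run. The 11 neighbour correlations were 12 with median scaling and 6 without background correction. They were 8 without C57BL/6 PBS mouse 5, 1 in letter A alone and 6 in letter B alone, with group means of all 5 mice. The cause of these changes was not tested, beyond the smaller number of mice. Title numbers did not pair mice across groups (0 of 5 pairs with r over 0.1 in 6 of the 8 pairs of groups, 3 of 5 and 2 of 5 in the others); with the number as a replicate block the strain count was 2 in colon and 1 in small intestine and the VSL#3 counts 0. Ignoring the mouse left 19 between the tissues. With median scaling the all-gene median shifted by 0.12 for VSL#3 in BALB/c small intestine, 0.15 for its strain difference there and 0.10 for the tissues in BALB/c PBS mice. The authors' table was not run where VSL#3 colon columns enter. Signals near the background bound what dim genes such as Hoxb3, Hoxc13 and Hoxd11 can show.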
